A study of Mus musculus with 6 samples.

Results

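Oxidative phosphorylation is carried out by 5 protein complexes of the inner mitochondrial membrane, and all but a few of their subunits are encoded in the nucleus. The genes described here are the protein_coding genes of the GENCODE M21 mouse annotation whose symbols start with Nduf, Sdh, Uqcr, Cox4, Cox5, Cox6, Cox7, Cox8 or Atp5, together with Cyc1 and Cycs and without Cox7a1 and Cox8b. This rule, which uses names only and no measured value, gave 98 genes. They comprise 36 subunits of complex I, 4 of complex II, 9 of complex III, cytochrome c, 18 genes of complex IV, 18 of ATP synthase and 12 assembly factors. Of the 23492 genes with reads in these libraries, 97 were members, and 92 members passed the filter on low counts and were tested. A second gene ID with the symbol Atp5o had no reads, and Cox6a2, Cox6b2, Cox7b2, Cox8c and Ndufaf6 were too low to test.

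Complex I takes electrons from NADH and complex II takes them from succinate. Both pass them through a lipid carrier to complex III, and cytochrome c, a small soluble protein, carries them on to complex IV, which reduces oxygen. The protons pumped along the way flow back through ATP synthase, which makes ATP. White fat holds fewer mitochondria than brown fat, and prolonged cold is known to raise mitochondrial genes in brown and beige fat cells.

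The tissue was epididymal white adipose tissue, the fat pad beside the epididymis, of wild type male C57BL/6N mice aged 20 weeks. Of these mice, 3 (numbers 7, 12 and 16) were kept alone at 4 °C for 24 h before harvest and are called cold. The other 3 (numbers 5, 6 and 10) carry the label ctrl, with a base housing of 22 to 24 °C, and whether they were housed alone is not given in the labels. Poly-A RNA, 100 ng per library, was read as direct cDNA on a nanopore device, so a read stands for a cDNA molecule copied without PCR, in full or in part. Values for cold mice are given in the order 7, 12 and 16, and values for ctrl mice in the order 5, 6 and 10.

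Gene reads per mouse were 725273, 1192386 and 782830 in cold mice and 937641, 1339385 and 1133111 in ctrl mice, and the 98 genes took 3.25% to 3.69% of them. Levels are given as CPM, the reads of a gene scaled to the reads assigned to genes in its library, where a single read is worth 0.747 to 1.38 CPM depending on the library. The 8 adipocyte markers, among them Adipoq, Plin1 and Fabp4, summed to 47289 to 50857 CPM in cold mice and 46820 to 51667 CPM in ctrl mice. None of the 8 was called, but members of the list differed in opposite directions without overlap, with Fabp4 at 22818 ± 576 and 18345 ± 1764 CPM and Cfd at 10879 ± 760.4 and 15536 ± 914 CPM in cold and ctrl mice, so the sum is no measure of the adipocyte share. Markers of simple epithelium summed to 96.5 to 188 CPM in cold mice and 10.5 to 41.6 CPM in ctrl mice, 4 of the 5 tested were called higher, and Epcam was at 0 in ctrl mice 6 and 10. Their part in the results below was not tested. The library of cold mouse 16 stood apart from the other 5 in how its reads fell on transcripts, as described with the transcripts. Values without it are given beside the transcript and usage results with the smallest p.

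The sum over all 98 genes was nearly the same in both groups. It was 33983, 36899 and 35526 CPM in cold mice, against 32455, 35520 and 34144 CPM in ctrl mice. The ranges overlapped, and the mean was 4.20% higher in cold mice. In bulk tissue, more cells of a kind and more RNA per cell cannot be told apart, which holds for every level below.

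None of the 92 tested genes passed the test in the comparison of cold with ctrl (edgeR quasi-likelihood test, Benjamini-Hochberg adjusted p under 0.05). Over all 9772 genes tested, 64 were called, or 0.655%, with 0.542% higher and 0.113% lower. At an unadjusted p under 0.05 there were 5 members, or 5.43%, against 8.43% of all genes tested. DESeq2 also called none of the 92. It had 1 at an unadjusted p under 0.05, and its share over all genes is not given here. The changes were small: 82 of the 92 genes had a log2 fold change between -0.25 and 0.25. The 95% interval of 80 of the 92 stayed within a change of 1.5-fold in either direction. The SD of the log2 fold changes over the 92 genes was 0.17, against 0.37 over all genes tested. The members were also measured more precisely, with a median SE of 0.13 against 0.24, so the 2 SDs are not directly comparable.

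Most of the small differences had the same sign. The log2 fold change was above 0 in 67 of the 92 genes (72.8%), against 50.8% of all genes tested, with a median of 0.07 against 0.01. The count rested on single mice. Without cold mouse 12 it was 51 of 92, and without cold mouse 16 it was 75 of 93. All members come from the same 6 libraries, so these counts are a description and carry no test.

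**Figure D1:**
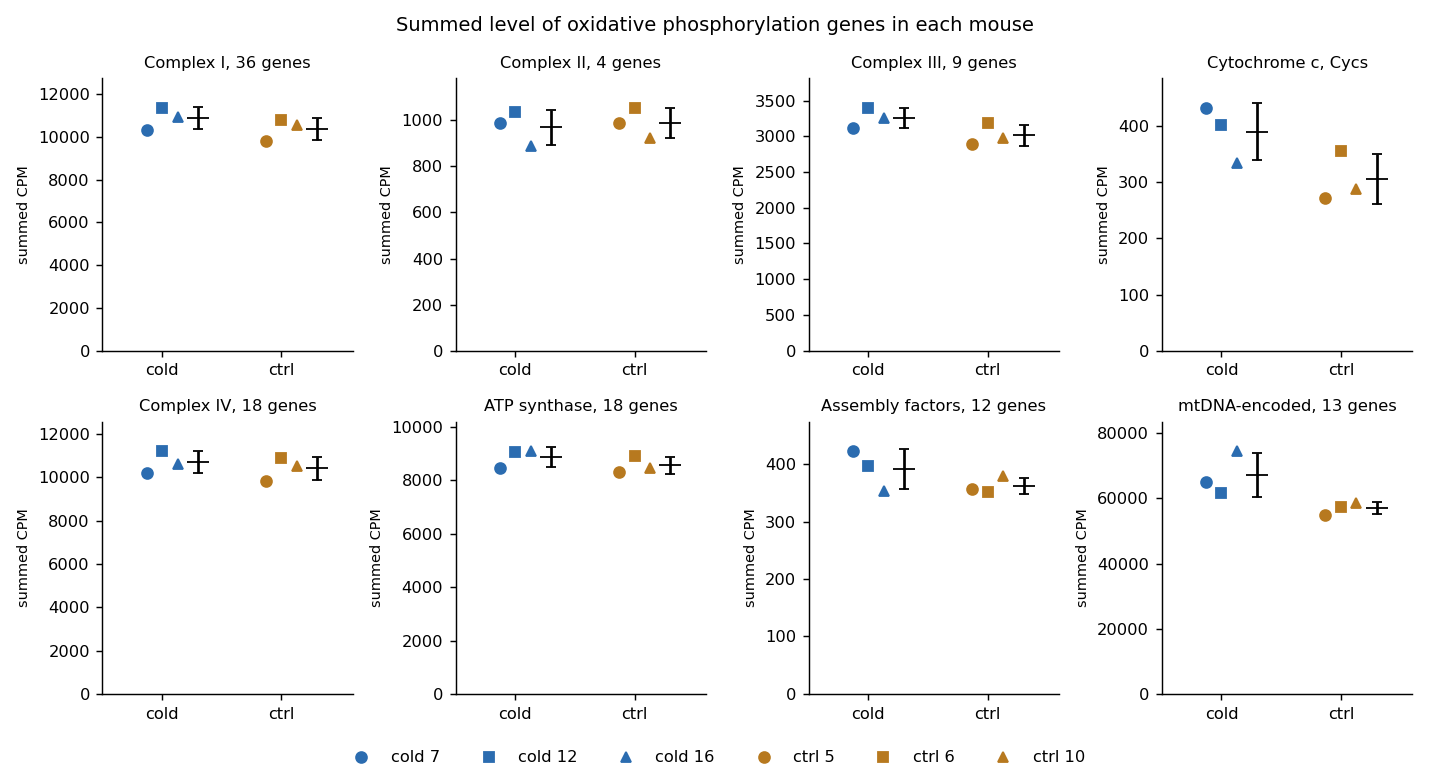
Summed CPM of the nuclear genes of each complex, of Cycs, of the assembly factors and of the 13 mitochondrially encoded mRNAs in each mouse; points are mice (cold left, ctrl right) and the black bar is the mean ± SD (n = 3). The cold and ctrl points overlap in every nuclear group, while the 3 cold points of the mitochondrially encoded mRNAs (61762 to 74576 CPM) lie above the 3 ctrl points (54992 to 58515 CPM).

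Complex I is the largest of the 5. The rule gave 7 nuclear core subunits that carry the redox centres and 29 accessory subunits around them. It left out Ndufb1-ps, which the annotation types as bidirectional_promoter_lncRNA. That gene averaged 476 ± 39.6 CPM in cold mice and 475 ± 57.8 CPM in ctrl mice. All 36 members of complex I passed the filter, 0 were called, and 26 had a log2 fold change above 0. Their sum was 10342, 11371 and 10955 CPM in cold mice and 9787, 10777 and 10578 CPM in ctrl mice. The groups overlapped, with both group SDs above 500 CPM. The median log2 fold change was 0.03 for the 7 core subunits and 0.07 for the 29 accessory subunits.

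Ndufc1, a small membrane subunit, had the smallest p of complex I. It was at 404, 385 and 428 CPM in cold mice, against 301, 340 and 365 CPM in ctrl mice. Each cold mouse was above each ctrl mouse, with a log2 fold change of 0.30 ± 0.13 (SE), but the gene did not pass (edgeR adjusted p = 0.539). Ndufa3, an accessory subunit with the highest level per kb of complex I (1240 CPM per kb), was at 604, 659 and 718 CPM in cold mice and 574, 533 and 616 CPM in ctrl mice. The groups overlapped and the log2 fold change was 0.23 ± 0.12 (edgeR adjusted p = 0.679). Ndufb9, another accessory subunit, averaged 562 ± 41.2 CPM in cold mice and 553 ± 29.5 CPM in ctrl mice.

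Ndufb7, an accessory subunit on the intermembrane side, was the only gene of complex I whose cold values were all below its ctrl values. It had 165, 191 and 188 CPM in cold mice and 199, 196 and 192 CPM in ctrl mice. Cold mouse 12 and ctrl mouse 10 were nearly level, and the log2 fold change was -0.08 ± 0.13 (edgeR adjusted p = 0.931). With one deposited file of each mouse it was 0.06, and with the other -0.26.

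Among the core subunits, Ndufs1, which holds iron-sulfur clusters of the electron path, averaged 149 ± 10.5 CPM in cold mice and 154 ± 23.8 CPM in ctrl mice. Ndufv1, the NADH-binding subunit, averaged 165 ± 17.6 and 159 ± 20.4 CPM in cold and ctrl mice. Both differences were smaller than the spread between mice.

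Complex II, the enzyme of the citric acid cycle that oxidises succinate, is the only complex with no mitochondrially encoded subunit. Its 4 genes summed to 987, 1036 and 887 CPM in cold mice and 989, 1055 and 925 CPM in ctrl mice. Sdha, the flavoprotein that binds succinate, had 252, 233 and 193 CPM in cold mice, against 269, 300 and 233 CPM in ctrl mice. Its groups overlapped, and its log2 fold change of -0.22 ± 0.14 was the lowest of the 4 (edgeR adjusted p = 0.773). Sdhb, the iron-sulfur subunit, averaged 244 ± 30.04 and 251 ± 16.3 CPM in cold and ctrl mice. Sdhc, a membrane anchor, averaged 270 ± 17.3 and 254 ± 23.4 CPM in cold and ctrl mice, and neither differed beyond its spread.

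Complex III, which passes electrons from ubiquinol to cytochrome c, was the only complex in which all tested genes, 9 of 9, had a log2 fold change above 0. The median was 0.10 and none was called. The 9 genes summed to 3109, 3401 and 3257 CPM in cold mice and 2896, 3181 and 2976 CPM in ctrl mice, which overlapped. Uqcrq, a small subunit near the cytochrome b centre, was at 599.8, 662 and 657 CPM in cold mice and 541, 588 and 571 CPM in ctrl mice. Its groups did not overlap, with a log2 fold change of 0.20 ± 0.12 (edgeR adjusted p = 0.729). Uqcr11, another small subunit, was at 502, 584.5 and 649 CPM in cold mice and 448, 503 and 549 CPM in ctrl mice, which overlapped, with 0.23 ± 0.13 (edgeR adjusted p = 0.704). The catalytic Cyc1 (cytochrome c1) and Uqcrfs1 (the Rieske protein) had log2 fold changes of 0.10 ± 0.14 and 0.07 ± 0.16.

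Cycs, the somatic cytochrome c, was at 433, 403 and 335 CPM in cold mice, against 272, 355 and 289 CPM in ctrl mice. Cold mouse 16 was below ctrl mouse 6, so the groups overlapped. The log2 fold change was 0.38 ± 0.14, with a 95% interval of 0.10 to 0.66, and it did not pass (edgeR adjusted p = 0.414). Without cold mouse 16 it was 0.48 (edgeR adjusted p = 0.178), and over the 15 alternatives tried it lay between 0.28 and 0.50. The gene lies on chromosome 6 (GRCm38, 50562563 to 50566538, minus strand), and 99.9% of its reads fell on a single transcript.

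Complex IV, cytochrome c oxidase, had the most abundant mRNAs of the set. Cox8a, a small subunit of the liver type that is general to most tissues, was the highest at 2162, 2461 and 2170 CPM in cold mice and 2121, 2314 and 2318 CPM in ctrl mice. It overlapped fully between groups (log2 fold change 0.03 ± 0.12). Per kilobase of the transcripts read, Cox8a stood at 4107 CPM per kb over all mice, followed by Cox7c at 2116, Ndufa4 at 1798, Cox6a1 at 1720 and Cox6c at 1638. The 8 genes with the highest CPM held 28.2% of the member CPM and the top 20 held 50.05%. A long-read count does not grow with length as fragment counts do, and reads may stop short of the annotated end, so the values per kb compare genes only roughly.

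Cox6a1, the general form of subunit 6A, was the only tested complex IV gene with all cold values above all ctrl values. It was at 978, 1053 and 1065 CPM in cold mice and 875, 964 and 971 CPM in ctrl mice. Cold mouse 7 and ctrl mouse 10 were nearly level, and the log2 fold change of 0.16 ± 0.12 did not pass (edgeR adjusted p = 0.811). Cox7c, a small subunit, averaged 1153 ± 90.2 and 1088 ± 81.6 CPM in cold and ctrl mice. Cox6b1, the general form of subunit 6B, averaged 968 ± 39.4 and 896 ± 84.2 CPM in cold and ctrl mice. Cox4i1, the main form of the largest nuclear subunit, averaged 1078 ± 60.2 and 1096 ± 72.3 CPM in cold and ctrl mice. Over the 11 general subunits the median log2 fold change was 0.11, and 9 of them were above 0.

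ATP synthase is built of an F1 head, a ring of c subunits in the membrane and stalks that join them. None of its 17 tested genes was called. The median log2 fold change was 0.12 in the 5 head genes, 0.01 in the 3 c-subunit genes and 0.06 in the 8 tested stalk and membrane genes. Atp5b, the catalytic beta subunit, was at 1211, 1323 and 1437 CPM in cold mice and 1261, 1276 and 1162 CPM in ctrl mice. The groups overlapped, with a log2 fold change of 0.13 ± 0.12 (edgeR adjusted p = 0.869). Atp5k, the small subunit e of the membrane part, was at 494, 533 and 609 CPM in cold mice, against 417, 473 and 509 CPM in ctrl mice. These overlapped as well, with 0.25 ± 0.13 (edgeR adjusted p = 0.661). Atp5s, also called coupling factor B and not a subunit of the purified enzyme, was at 7.66 to 16.8 CPM in cold mice and 12.4 to 20.3 CPM in ctrl mice.

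**Figure D2:**
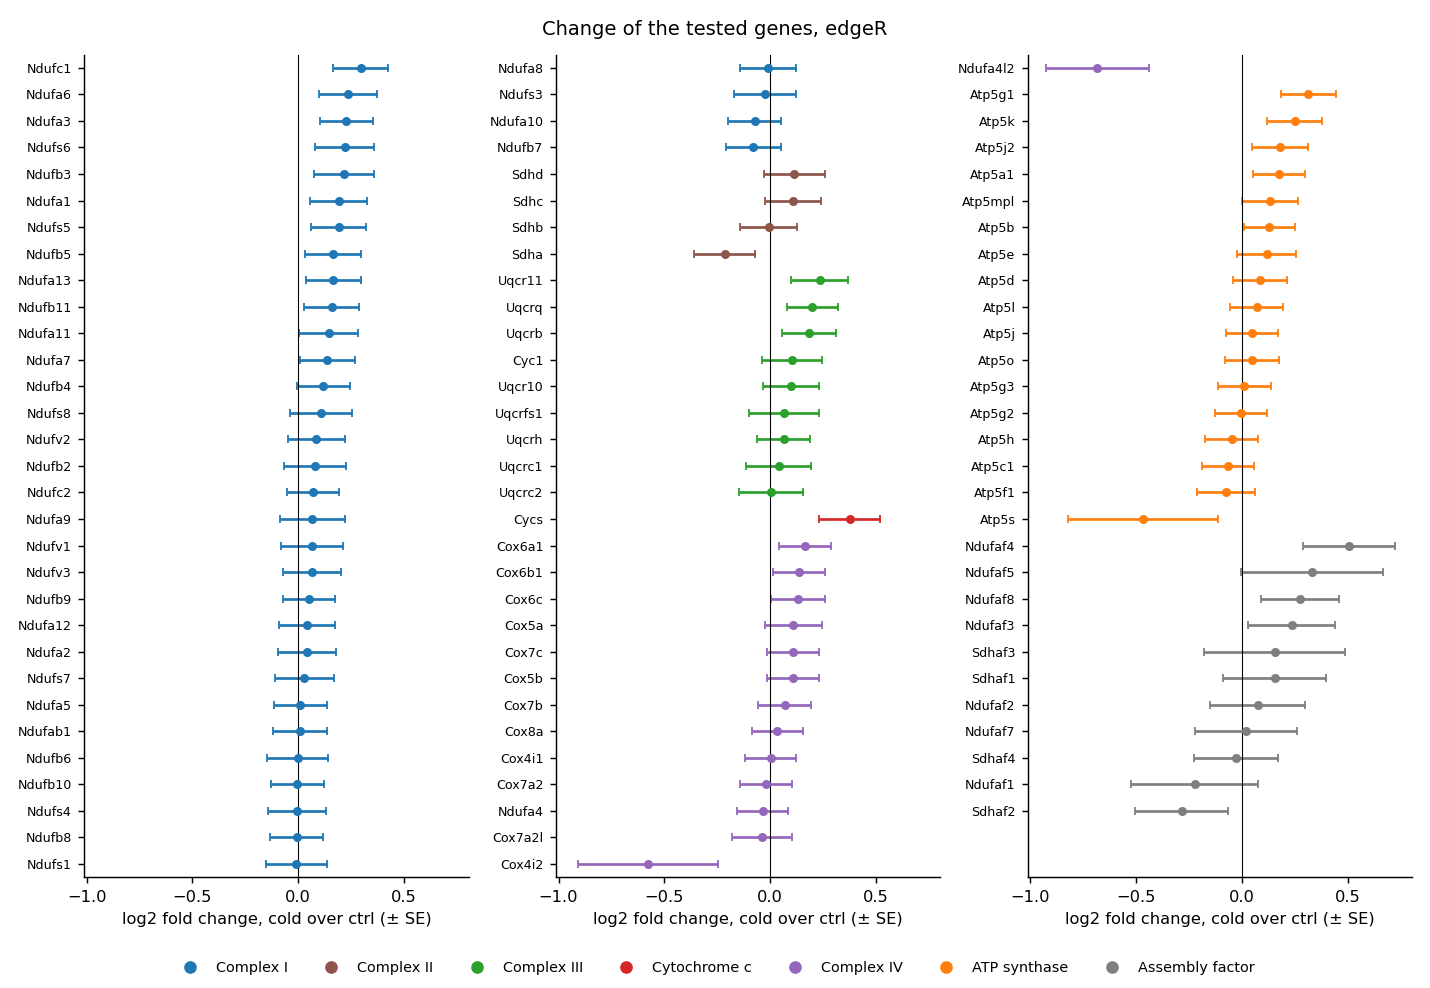
Log2 fold change of the tested genes, all but 1 of the 92, cold over ctrl, with its standard error from edgeR, ordered within each complex; colours mark the complex. Most points lie within 0.25 of 0, Ndufa4l2 (-0.68) and Cox4i2 (-0.58) are the lowest, and Ndufaf4 (0.51) and Cycs (0.38) are the highest.

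Assembly factors help build the complexes and leave them afterwards. The 12 that carry a member symbol were low, with 2.84 to 86.3 CPM per kb, against 53.8 to 1240 CPM per kb for the subunits of complex I. In CPM, the 11 tested ones averaged 12.1 to 62.8 over all mice, against 106 to 617 for complex I. Over the 11 tested genes the log2 fold change had a median of 0.15 and was above 0 in 8, and none was called. Ndufaf4, a complex I assembly factor, was at 48.3, 48.6 and 33.2 CPM in cold mice, against 29.9, 32.9 and 30.9 CPM in ctrl mice. Cold mouse 16 was just above ctrl mouse 6, so the groups did not overlap, with a log2 fold change of 0.51 ± 0.22 (edgeR adjusted p = 0.534). Ndufaf8, a complex I assembly factor with the highest level of the 12, was at 66.2, 66.3 and 72.8 CPM in cold mice and 49.1, 53.0 and 69.7 CPM in ctrl mice. Sdhaf4, which assists the flavoprotein of complex II, averaged 50.6 ± 11.3 and 52.6 ± 3.44 CPM in cold and ctrl mice. The median of the 11 is unsteady, because it was 0.30 with one file of each mouse and -0.17 with the other.

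Across the 92 tested genes, 5 had all cold values above all ctrl values (Ndufc1, Uqcrq, Cox6a1, Atp5g1 and Ndufaf4), or 5 of 92 against 5.96% of all genes tested. Another 3 had all cold values below (Ndufb7, Cox4i2 and Ndufa4l2), against 7.7% of all genes tested. Neither count exceeded the share over all genes.

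Several subunits have paralogs that replace each other by tissue or condition. The largest relative differences were those of Ndufa4l2 and Cox4i2, on means of only 25 and 13.7 reads per mouse. The next largest log2 fold changes, of Ndufaf4 (0.51), Atp5s (-0.47) and Cycs (0.38), were outside these families. Ndufa4l2 is the paralog of the complex IV subunit Ndufa4 and is known as a gene induced by low oxygen. It had 13, 23 and 13 reads in cold mice, or 17.9, 19.3 and 16.6 CPM, against 29, 40 and 32 reads in ctrl mice, or 30.9, 29.9 and 28.2 CPM. All cold mice were below all ctrl mice, with a log2 fold change of -0.68 ± 0.24 and a 95% interval of -1.16 to -0.20. Its unadjusted p of 0.0114 was the smallest of the 92 genes, and it did not pass (edgeR adjusted p = 0.373). Over the 15 alternatives the log2 fold change stayed below 0, between -0.84 and -0.47. The gene (chromosome 10, 127514967 to 127517154, plus strand) overlaps Shmt2 on the other strand, to which 85 reads were assigned in all, and the use of strand in counting is not given in the sources used here.

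Its partner Ndufa4 was at 1060, 1070 and 1022 CPM in cold mice and 1030, 1151 and 1108 CPM in ctrl mice, so Ndufa4l2 took 1.68% ± 0.0868 of the reads of the pair in cold mice and 2.64% ± 0.236 in ctrl mice (SD, n = 3 each). Cox4i2, the alternative form of Cox4i1 that is likewise known to respond to low oxygen, showed the same order of groups. It had 6, 11 and 11 reads in cold mice and 15, 22 and 17 in ctrl mice, or 0.804%, 0.802% and 1.29% of the pair in cold mice against 1.43%, 1.39% and 1.45% in ctrl mice. Its log2 fold change was -0.58 ± 0.33 (edgeR adjusted p = 0.704), and it was -0.80 without cold mouse 16.

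The other alternative forms of complex IV were rare. Cox6a2, the heart and muscle form, had 1 read in cold mice and 2 in ctrl mice, against 2798 and 3211 reads of Cox6a1 in cold and ctrl mice. The forms known from testis had few reads. Cox8c had 3, 2 and 0 reads in cold mice and 0 in ctrl mice. Cox7b2 had 1, 0 and 1 reads in cold mice and 0 in ctrl mice. Its general form Cox7b had 1217 and 1498 reads in cold and ctrl mice. Cox6b2 had 9, 7 and 4 reads in cold mice and 3, 3 and 6 in ctrl mice. In CPM the Cox6b2 groups overlapped, with cold mouse 16 at 5.11 and ctrl mouse 10 at 5.30. A count of 0 allows up to 3 reads per library, which covers the counts of Cox8c and Cox7b2. Cox6b2 had reads in every mouse, so that bound does not apply to it. With no filter on low counts, none passed (edgeR adjusted p = 0.491 for Cox8c, 0.727 for Cox6b2 and 0.773 for Cox7b2), at unadjusted values of 0.024, 0.0632 and 0.170. The 6 spermatid markers, among them Prm1 and Prm2, summed to 116, 138 and 10.2 CPM in cold mice and 1.07, 12.7 and 3.53 CPM in ctrl mice, and Odf1 was at 0 in cold mouse 16 and in all ctrl mice. Their part in the reads of these isoforms was not tested.

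Cox7a2, the general form of subunit 7A, and the related Cox7a2l shared reads as 81.8% ± 0.132 Cox7a2 in cold mice and 81.5% ± 2.29 in ctrl mice. The forms of brown fat and muscle that the rule leaves out were low. Cox8b was at 29.0, 38.6 and 67.7 CPM in cold mice and 22.4, 41.8 and 21.2 CPM in ctrl mice, and Cox7a1 averaged 13.7 ± 2.47 and 12.2 ± 4.30 CPM in cold and ctrl mice.

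The c subunit, of which ATP synthase holds a ring, is made from 3 genes that encode the same mature protein behind different mitochondrial import peptides. Their coding sequences, read from the GENCODE M21 transcripts, end in 78 codons with the same amino acids, of which the last 234 coding bases before the stop are shown because they let reads of the 3 genes be told apart. They differ at 63 positions, 55 of them at the third base of a codon, and capitals mark these 63 positions.
Atp5g1: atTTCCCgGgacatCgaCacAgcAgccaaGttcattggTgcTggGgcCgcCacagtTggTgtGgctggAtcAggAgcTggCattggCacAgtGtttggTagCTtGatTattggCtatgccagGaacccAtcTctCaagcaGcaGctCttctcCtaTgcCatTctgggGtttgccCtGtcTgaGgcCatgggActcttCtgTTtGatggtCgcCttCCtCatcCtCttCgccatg
Atp5g2: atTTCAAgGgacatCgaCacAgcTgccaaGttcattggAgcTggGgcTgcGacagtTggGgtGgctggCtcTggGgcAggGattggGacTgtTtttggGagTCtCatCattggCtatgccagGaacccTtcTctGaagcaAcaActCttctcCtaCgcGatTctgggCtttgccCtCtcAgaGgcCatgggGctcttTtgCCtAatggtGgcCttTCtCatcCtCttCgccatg
Atp5g3: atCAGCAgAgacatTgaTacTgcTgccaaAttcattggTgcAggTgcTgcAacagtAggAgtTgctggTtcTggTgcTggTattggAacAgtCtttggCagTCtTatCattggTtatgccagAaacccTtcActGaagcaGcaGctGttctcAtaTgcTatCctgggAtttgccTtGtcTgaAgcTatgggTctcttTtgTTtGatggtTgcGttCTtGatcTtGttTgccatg
Atp5g1 and Atp5g2 differ at 36 of these bases, Atp5g1 and Atp5g3 at 50, and Atp5g2 and Atp5g3 at 53. The genes lie on chromosomes 11, 15 and 2, all on the minus strand.

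Atp5g3 gave most of the c-subunit mRNA, with 68.1% of the reads of the 3 genes over all mice, then Atp5g2 with 19.9% and Atp5g1 with 11.9%. Per kb the order was the same, with 1476, 426 and 43.7 CPM per kb for Atp5g3, Atp5g2 and Atp5g1, whose transcripts read are the longest. Atp5g1, the form whose mRNA is known to follow demand in brown fat, was at 216, 203 and 206 CPM in cold mice, against 163, 176 and 171 CPM in ctrl mice. Every cold mouse was above every ctrl mouse. The log2 fold change was 0.31 ± 0.13 with a 95% interval of 0.06 to 0.57, and it did not pass (edgeR adjusted p = 0.508). Atp5g3 was at 961, 1071 and 1132 CPM in cold mice and 1045, 1171 and 980 CPM in ctrl mice, and Atp5g2 averaged 308 ± 5.67 and 315 ± 13.7 CPM in cold and ctrl mice. The Atp5g1 share of the family was 14.6%, 12.8% and 12.5% in cold mice and 10.8%, 10.6% and 11.6% in ctrl mice, with no overlap.

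**Figure D3:**
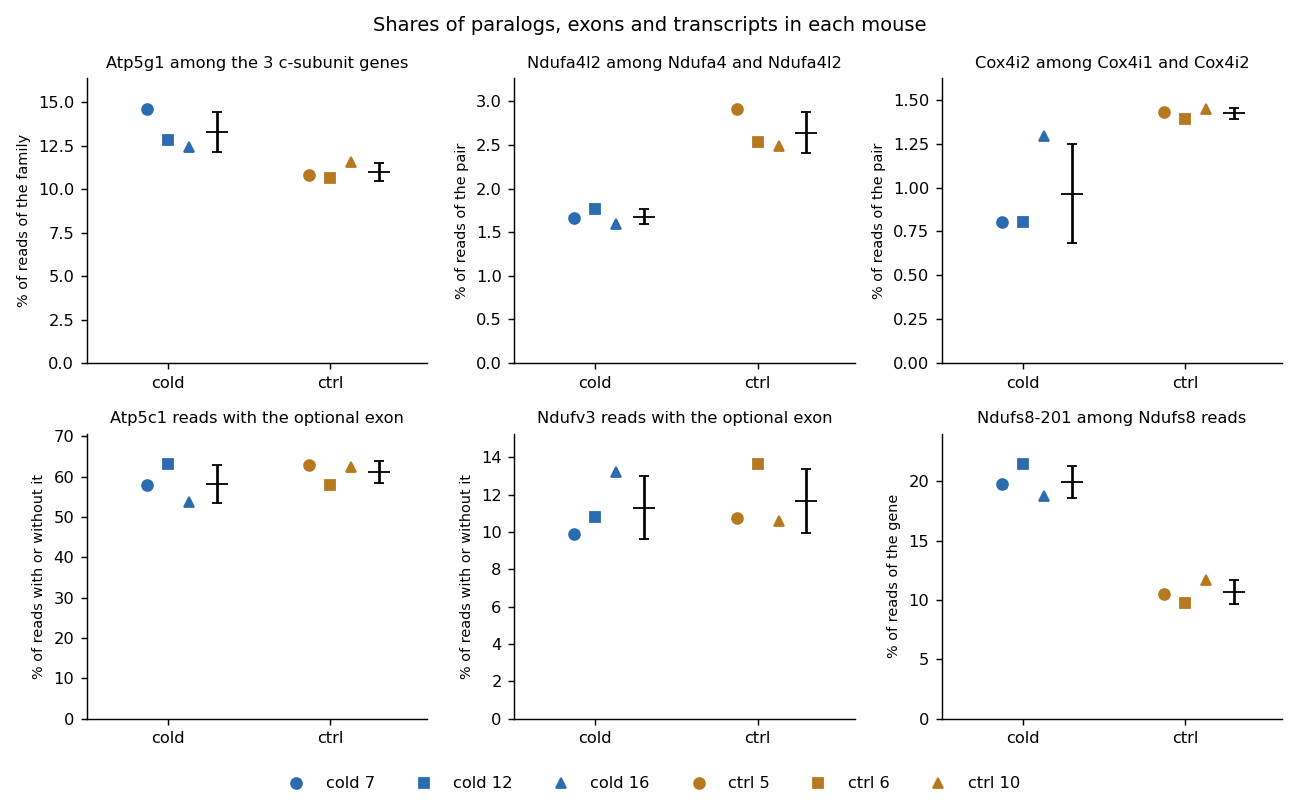
Shares in each mouse of paralogs within their family (top: Atp5g1, Ndufa4l2, Cox4i2), of reads that include an optional exon (bottom: Atp5c1, Ndufv3) and of transcript Ndufs8-201 within its gene; points are mice (cold left, ctrl right) and the bar is the mean ± SD (n = 3). Cold and ctrl do not overlap for Atp5g1, Ndufa4l2, Cox4i2 and Ndufs8-201, and do overlap for both exons.

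The 98 genes have 451 annotated transcripts, of which 377 had reads and 198 were tested. None was called (edgeR quasi-likelihood test, adjusted p under 0.05), against 0.381% of all 12325 transcripts tested. An unadjusted p under 0.05 was reached by 20 of the 198 (10.1%, against 6.87% of all transcripts), of which 18 were higher and 2 lower in cold mice, and 17 were not the leading transcript of their gene. In 13 of the 18 higher ones the library of cold mouse 16 had the highest share. Without that mouse 13 of 206 tested transcripts reached p under 0.05, and the share of all transcripts in that fit is not given here.

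That library spread its reads over more transcripts. The leading transcript of each gene took 87.4%, 86.8% and 80.9% of member reads in cold mice and 86.5%, 86.8% and 86.7% in ctrl mice. In 54 of the 80 members with a mean of at least 50 reads, cold mouse 16 had the lowest leading share of the 6. Reads on transcripts not annotated as protein_coding were 5.51%, 5.92% and 9.39% of member reads in cold mice and 5.89%, 5.76% and 6.02% in ctrl mice. Other protein-coding genes showed the same mouse apart, with 6.49%, 6.87% and 8.49% in cold mice and 6.61% to 6.92% in ctrl mice.

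**Figure D4:**
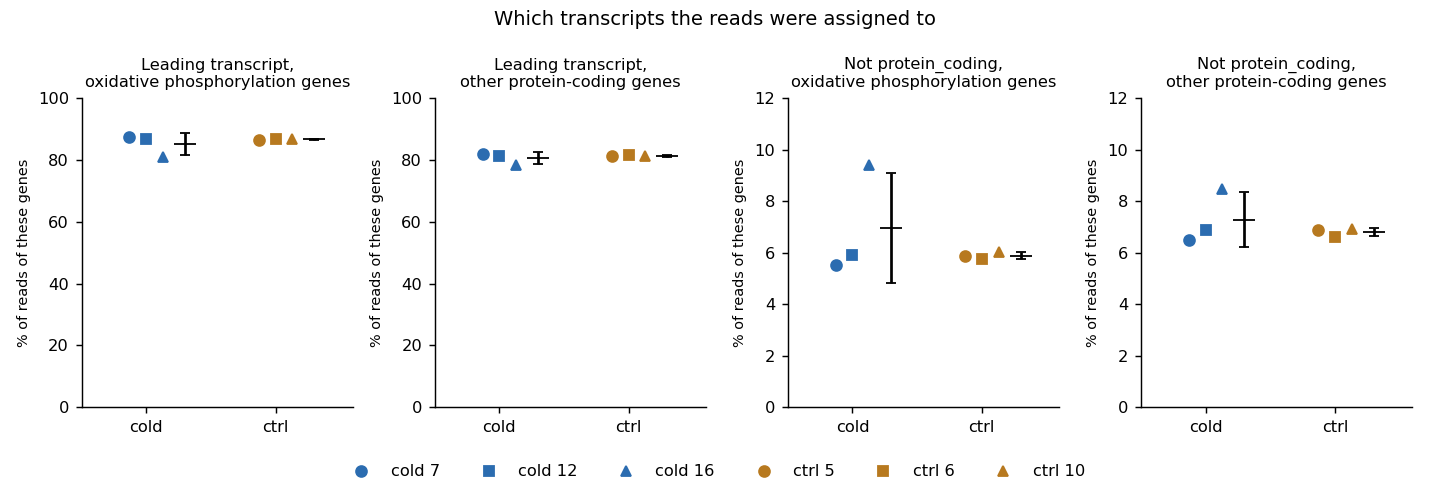
Percent of reads on the leading transcript (left pair) and on transcripts not annotated as protein_coding (right pair), for the oxidative phosphorylation genes and for other protein-coding genes; points are mice (cold left, ctrl right), bars the mean ± SD (n = 3). Cold mouse 16 lies apart in all 4 panels (80.9% and 9.39% for the oxidative phosphorylation genes), and the other 5 mice lie close together.

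Transcript usage, the share of the reads of a gene that each transcript takes, was tested in 61 members with at least 2 tested transcripts. None was called by diffSpliceDGE of edgeR with the Simes method, against 0% of 2624 genes. An unadjusted p under 0.05 was reached by 4 of the 61 (6.56%, against 0.953% of all genes), namely Uqcrq, Cox6b1, Ndufs8 and Ndufs1. By the F test of the same fit 7 of the 61 reached it, against 3.96% of all genes, and 0 were called, against 0.0381% of all genes. Without cold mouse 16, 4 of 64 members had an unadjusted Simes p under 0.05. The share over all genes in that fit is not given here. These members were Atp5j2, a membrane subunit of ATP synthase (0.0108), Cox7c (0.0253), Ndufs8 (0.0264) and Ndufc1 (0.0425). Only Ndufs8 was among the 4 of all mice, whereas Uqcrq had 0.0914, Cox6b1 0.379 and Ndufs1 0.143 without cold mouse 16. Atp5j2 and Ndufc1 had 0.959 and 0.342 in all mice.

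Ndufs8, a core subunit with iron-sulfur clusters, was named for its small unadjusted usage p. Its usage did not pass (diffSpliceDGE F test, adjusted p = 0.982). The total of Ndufs8 overlapped, at 119, 106 and 102 CPM in cold mice and 101, 108 and 98.0 CPM in ctrl mice. The leading transcript, Ndufs8-205, took 68.6%, 61.9% and 58.8% of its reads in cold mice and 75.8%, 81.2% and 74.8% in ctrl mice. Ndufs8-201 took 19.8%, 21.4% and 18.8% in cold mice, against 10.5%, 9.72% and 11.7% in ctrl mice. The groups did not overlap for either, and the share of all transcripts without overlap is not given here. Cold mouse 16 was not the extreme one for Ndufs8-201. The counts behind this are small, with 17, 27 and 15 reads of Ndufs8-201 in cold mice and 10, 14 and 13 in ctrl mice, and the transcript did not pass (log2 fold change 1.02 ± 0.30, edgeR adjusted p = 0.289). Without cold mouse 16 its log2 fold change was 1.10 (edgeR adjusted p = 0.228). Both transcripts have the same coding sequence of 639 bases, and they differ in the 5′ untranslated part, which is 268 bases in Ndufs8-201 and 65 bases in Ndufs8-205.

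Uqcrq is read as a long form with a 3′ untranslated part of 1134 bases (Uqcrq-201) and a short form with 103 bases (Uqcrq-203), and both encode the same 82 codons. The long form took 72.2%, 71.6% and 61.9% of its reads in cold mice and 69.6%, 67.9% and 71.9% in ctrl mice, which overlapped. The rare Uqcrq-202 took 3.22%, 2.66% and 4.28% in cold mice and 2.17%, 1.52% and 1.08% in ctrl mice. It had the smallest p of all member transcripts and did not pass (log2 fold change 1.29 ± 0.35, edgeR adjusted p = 0.181), and without cold mouse 16 the change was 1.07 (edgeR adjusted p = 0.402).

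Cox6b1-203, a processed transcript of the general subunit 6B gene, took 3.73%, 3.01% and 6.16% of its reads in cold mice and 2.52%, 2.23% and 2.51% in ctrl mice. Its log2 fold change of 0.93 ± 0.27 (edgeR adjusted p = 0.265) was 0.58 without cold mouse 16. Atp5g1-204, which shares the coding sequence of the leading Atp5g1-201 and differs in its untranslated ends, took 15.9%, 17.8% and 26.1% in cold mice and 13.1%, 16.5% and 11.9% in ctrl mice. Its log2 fold change was 0.80 ± 0.25 (edgeR adjusted p = 0.348), and 0.59 without cold mouse 16. Ndufa3-204, annotated as a target of nonsense-mediated decay, took 13.7%, 12.1% and 13.5% in cold mice and 10.8%, 9.24% and 10.5% in ctrl mice. That transcript did not overlap between groups, cold mouse 16 was not its extreme, and it did not pass (log2 fold change 0.59 ± 0.19, edgeR adjusted p = 0.370). Without cold mouse 16 its log2 fold change was 0.50 (edgeR adjusted p = 0.477).

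Among the other genes with the smallest usage p, 3 had their highest share in cold mouse 16. Cox4i1-205, with the coding sequence of the leading Cox4i1-201, took 10.5%, 13.2% and 20.1% of Cox4i1 reads in cold mice and 10.9%, 9.93% and 9.77% in ctrl mice. The retained intron Atp5mpl-205 of Atp5mpl, a small membrane subunit of ATP synthase, took 7.34%, 7.65% and 13.7% in cold mice and 7.62%, 3.63% and 6.14% in ctrl mice. The processed transcript Atp5h-204 of Atp5h, the stalk subunit d, took 4.17%, 3.85% and 9.25% in cold mice and 2.66%, 3.26% and 2.97% in ctrl mice. Their unadjusted Simes p was 0.0694 for Cox4i1, 0.0577 for Atp5mpl and 0.0686 for Atp5h, and without cold mouse 16 it was 0.572, 0.561 and 0.708 in the same order. Cox7c went the other way, with 0.0871 in all mice and 0.0253 without that mouse. Its rare Cox7c-204 took 1.71%, 1.34% and 0.942% in cold mice and 1.07%, 0.523% and 0.626% in ctrl mice, which overlapped. Atp5k-202, a short form of the subunit e gene with 38 codons in place of 71, took 2.23%, 1.89% and 2.31% in cold mice and 1.28%, 1.26% and 0.693% in ctrl mice, on 4 to 12 reads a mouse. It did not pass, and without cold mouse 16 its log2 fold change was 1.08 (edgeR adjusted p = 0.689).

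Several members were read to a large part as transcripts not annotated as protein_coding. Ndufa10, an accessory subunit of complex I, had 39.9%, 39.8% and 42.2% of its reads on the decay target Ndufa10-207 in cold mice and 36.2%, 40.9% and 41.8% in ctrl mice. Over all mice, the share not on protein_coding transcripts was 33.3% for Ndufa7, an accessory subunit, 32.5% for Ndufs1, 23.5% for Atp5b and 19.7% for the core subunit Ndufs7. For Ndufs1 most of it was the retained intron Ndufs1-213, with 28.7%, 29.8% and 34.5% in cold mice and 25.2%, 26.2% and 32.2% in ctrl mice. Ndufs1 overlaps Eef1b2 on the other strand, which had 2244 reads in all. For Atp5b it was mainly the processed transcript Atp5b-206, with 13.3%, 15.7% and 27.1% in cold mice and 13.7%, 14.4% and 16.9% in ctrl mice. For these 3 transcripts the groups overlapped. The unadjusted Simes p of Atp5b usage was 0.2002 in all mice and 0.973 without cold mouse 16.

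Atp5c1, the gamma subunit that turns inside the F1 head, has an optional exon near its end. The exon is number 9 of 10 in Atp5c1-203 and spans 37 bases (GRCm38, chr2:10056770-10056806, minus strand). The last coding bases with and without it are shown because the exon sets the end of the protein, and capitals mark the bases that the exon adds up to the stop codon.
Exon included: atctctggggctgctgctctGGATTAA
Exon skipped: atctctggggctgctgctctgtaa
The included form encodes 298 codons and the skipped form 297, as given by the annotation. Reads with the exon made up 57.8%, 63.0% and 53.6% in cold mice and 62.8%, 57.9% and 62.5% in ctrl mice. The groups overlapped, and the difference of -2.90 percentage points gave an exact two-sided permutation p of 0.6, where the smallest possible p is 0.1. The test could not reach 0.05 and says nothing about stability. The total of Atp5c1 averaged 537 ± 34.5 CPM in cold mice and 573 ± 35.9 CPM in ctrl mice.

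Ndufv3, an accessory subunit at the NADH-oxidising end of complex I, has a long and a short form. They differ by an exon of 1092 bases, number 3 of 4 in Ndufv3-201 (GRCm38, chr17:31527310-31528401, plus strand), which is coding throughout and takes the protein to 468 codons from the 104 of Ndufv3-202. The junction is shown with the first bases of the exon in capitals, beside the same stretch with the exon skipped.
Long form: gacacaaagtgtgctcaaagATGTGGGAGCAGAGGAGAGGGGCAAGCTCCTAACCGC
Short form: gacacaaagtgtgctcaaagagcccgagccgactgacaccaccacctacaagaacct
The short form prevailed in this tissue. Reads with the exon made up 9.92%, 10.8% and 13.2% in cold mice and 10.8%, 13.6% and 10.6% in ctrl mice, with an exact two-sided permutation p of 0.7. Atp5d, the delta subunit of the head, was read about equally as Atp5d-201 (48.4% over all mice) and Atp5d-203, which share their coding sequence and have 5′ untranslated parts of 151 and 635 bases.

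The members share short transcripts. The median annotated length of the transcripts read was 907 bases for the 92 members, against 2876 bases for all genes tested. The log2 fold change varied with this length. In members read as transcripts under 500 bases the median was 0.21 (6 genes), and in other tested genes of that length it was 0.20 (90 genes). Between 500 and 1000 bases the medians were 0.07 and 0.06 (46 members and 626 other genes), and between 1000 and 2000 bases 0.04 and 0.01 (29 members and 2129 other genes). From 2000 bases up they were 0.15 for 11 members, among them Cycs, Atp5g1 and Ndufaf4, and -0.01 for 6835 other genes. Whether length contributed to the small positive median of the members was not tested.

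**Figure D5:**
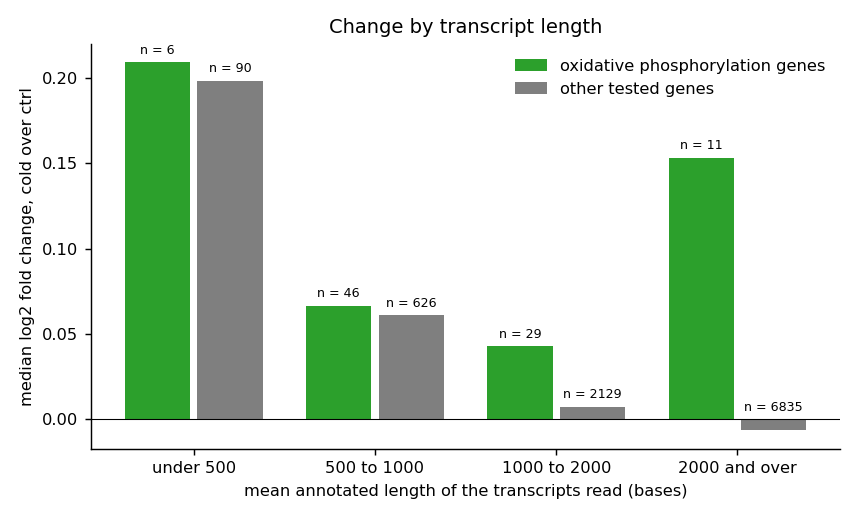
Median log2 fold change, cold over ctrl, by the annotated length of the transcripts read, for members (left bar of each pair) and other tested genes (right bar); n is the number of genes. Genes under 500 bases have medians of 0.21 and 0.20, and in the 2 middle classes the medians of both sets are within 0.04 of each other.

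RefSeq promoters of GRCm38.p6, from 250 bases before to 50 bases after the start of transcription, were found for 77 of the 97 member symbols. The core GCATGCGC that the nuclear respiratory factor NRF1 is known to bind, in either strand, was in 13 of the 77 (16.9%) and in 3.05% of all 27025 genes with a promoter. The YY1 core AAGATGGC was in 10 of the 77 (12.99%) and in 3.19% of all, and the cyclic AMP element TGACGTCA in 5 (6.49%) and in 2.03%. The ETS core CCGGAAGT, bound by factors such as GABP, was in 5 (6.49%) and in 4.31%, and TATAAA in 7 (9.09%) and in 15.7%. Member promoters had a median GC content of 58.7%, against 52.7% over all promoters. The motifs were chosen with the genes known, and a match describes letters in the window and not binding.

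Of the other genes of the pathway, the 13 mitochondrially encoded mRNAs summed to 64974, 61762 and 74576 CPM in cold mice, against 54992, 57445 and 58515 CPM in ctrl mice, with no overlap. All 13 had a log2 fold change above 0, against 50.8% of all genes tested. An unadjusted p under 0.05 was reached by 10, against 8.43% of all genes tested, but none passed (lowest edgeR adjusted p 0.182). The 13 come from the same 6 libraries, so these counts are a description and carry no test. Cold mouse 16 had the highest sum. Per read of the nuclear members there were 1.91, 1.67 and 2.10 mitochondrially encoded reads in cold mice and 1.69, 1.62 and 1.71 in ctrl mice, which overlapped.

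Of 31 tested assembly factors with other names, 0 were called and the median log2 fold change was 0.08. The 2 with the smallest p were Uqcc2, for complex III, at 0.49 ± 0.16 (edgeR adjusted p = 0.315), and Cox19, for the copper supply of complex IV, at 0.48 ± 0.17 (edgeR adjusted p = 0.377). Of 7 carriers, channels and the ATPase inhibitor, 0 were called, with Atpif1, the inhibitor of ATP synthase, at 0.29 ± 0.15 (edgeR adjusted p = 0.639). Of 8 tested transcriptional regulators of mitochondrial genes, 0 were called and the median was -0.10, and Ppargc1a, the cold-responsive coactivator PGC-1alpha, had 17 reads in cold mice and 10 in ctrl mice and was not tested. Of 13 citric acid cycle genes 0 were called, and Idh3a, a subunit of isocitrate dehydrogenase, came nearest. It was at 277, 257 and 238 CPM in cold mice, against 189, 192 and 179 CPM in ctrl mice, with no overlap (log2 fold change 0.49 ± 0.13, edgeR adjusted p = 0.131).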

How the data were processed

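Per the labels, epididymal fat of 6 mice was sequenced as direct cDNA, with 2 deposited files per mouse (X1 and X2) whose difference is not given in the sources used here. The deposited values are read counts per annotated transcript, made by the authors by alignment to GRCm38 with minimap2, per the submitters' processing notes. No source used here names the counting tool or says whether it used strand. In all, 21 members overlap another gene with at least 60 reads. Among them are Cox4i1, with Emc8 on the other strand (387 reads) and Gm20388 on the same strand (295 reads), and Ndufa3, with Tfpt on the other strand (107 reads). Counts of X1 and X2 were summed per mouse and then per gene (GENCODE M21), and 0.139% to 0.165% of reads, on IDs not in that annotation, were left out. Genes and transcripts passing filterByExpr were scaled by TMM and tested with edgeR 4.0.16 (quasi-likelihood F test, cold over ctrl, no covariates), with p-values adjusted over all features tested by the Benjamini-Hochberg method. Transcript usage was tested with diffSpliceDGE. DESeq2 1.42.0 and limma 3.58.1 were alternatives, and the tests were checked on simulated counts. Ranges of 95% are the log2 fold change ± 1.96 SE. Levels per kb divide CPM by the read-weighted annotated length.

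The mice are separate animals. The lists of genes and the members were chosen with earlier results of these data known. Genes were named by rule: the highest levels and smallest p-values of each complex, groups without overlap, paralog families, and the smallest p-values and largest non-coding shares among transcripts. Cyc1, Uqcrfs1, Ndufv1, Atp5s, Atp5c1, Ndufv3, Atp5d, Atp5j2 and Cox6c were added after their values were seen. The values of 1 tested gene are not reported here, though it is counted in all totals. Depth was 726283 to 1341592 reads per mouse, of which all but the unmatched were assigned to genes. A count of 0 allows up to 3 reads, or 2.24 to 4.14 CPM, for counting error only.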

Additional observations from a re-analysis of the deposited data

How the results depend on the processing

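None of the 15 alternatives called a member gene, with a lowest adjusted p of 0.178. At an unadjusted p under 0.05 they had 1 to 7 member genes, and the shares over all genes are not given here. None of 14 called a member transcript (lowest adjusted p 0.0714, without cold mouse 7), and none of 13 called a member for usage (lowest adjusted p 0.982). Over all genes the count of 64 calls became 371 with no filter, 199 without cold mouse 7, 38 with X2 only, 35 without cold mouse 12 and 106 without ctrl mouse 5. Among the medians by complex, that of the assembly factors was 0.30 with X1 only and -0.17 with X2 only, and 0.094 to 0.19 with each mouse left out in turn. That of complex II ranged from -0.069 to 0.074 and that of ATP synthase from 0.022 to 0.094 with each mouse left out. The median over all members stayed between 0.04 and 0.11. Of 553 values for 37 named genes, 550 stayed within 1 SE of the value given, 44 values in 14 genes had the other sign, and none was called. Counting only reads on protein_coding transcripts was chosen after seeing the data. No paired analysis was possible because the labels give cold and ctrl mice no shared numbers.

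The 3 mice per group and counts of under 50 reads per mouse limit the rarely read genes: the SE of the log2 fold change was 0.35 for Atp5s and 0.33 for Cox4i2, against 0.12 for Cox8a.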
